A study of Xenopus laevis with 6 samples.

Results

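The genes described here drive the cell cycle and license DNA for replication: the cyclins A, B, D and E, the cyclin-dependent kinases (Cdks) they activate, the kinases and phosphatases that switch Cdks on and off, regulators of the anaphase-promoting complex (APC/C), and the proteins that load and fire replication origins. They were taken by gene name. A probe set (a group of short oligonucleotides that together give 1 signal) was included when the platform annotation gave it 1 gene symbol that fitted the rule. The symbol had to begin with cdc25, or with ccna, ccnb, ccnd, ccne, mcm or orc and a digit. Otherwise it had to be 1 of a fixed set of names such as cdk1, cdt1, gmnn or pcna. This gave 94 of 32539 non-control probe sets, which read 77 of the 11303 named gene copies and belong to 49 genes. Xenopus laevis is an allotetraploid frog, and the suffixes L and S mark the copies of a gene in its 2 subgenomes, so L and S copies are counted apart.

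The RNA came from whole Xenopus laevis embryos in early gastrulation (stage 10.5). The labels name 3 Ext1 MO samples, whose embryos carried a morpholino (an antisense oligonucleotide) against Ext1, a glycosyltransferase of heparan sulfate synthesis, and 3 Mispair MO samples, whose embryos carried a control morpholino. Both groups received 20 ng of morpholino at the 2-cell stage, and each sample pooled 5 embryos. The labels do not say whether both cells were injected, nor name a frog strain.

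The fertilised frog egg divides rapidly on stored maternal RNA and protein, alternating DNA synthesis and mitosis with almost no gap phases. At the mid-blastula transition the zygotic genome is switched on, cycles lengthen, checkpoints begin to act, and several maternal regulators are replaced by relatives made from zygotic genes. The gastrula lies shortly after this change. Origins are licensed when ORC, Cdc6 and Cdt1 load the MCM helicase onto DNA, and geminin blocks Cdt1 afterwards so that no origin is used again in the same cycle.

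The 6 columns of the signal table held 1 profile. Each of the 30 ordered pairs of columns was proportional within the rounding of the last decimal, over all 32635 probe sets. The zygotic-type cyclin A gene copy ccna2.L shows it: its signal was 11297, 11692 and 11662 in the columns named for Ext1 morpholino samples 1, 2 and 3, against 11419, 11317 and 11633 in those named for control samples 1, 2 and 3. The zygotic MCM6 copy mcm6.2.L, far dimmer, read 217.0, 225 and 224 in the Ext1 morpholino columns and 219, 217 and 223 in the control columns. Both genes followed the same column constants, as did ext1.S, the targeted gene, whose brightest probe set read 518, 536 and 534 in the Ext1 morpholino columns and 523, 518 and 533 in the control columns. Among the 85 cell cycle and licensing probe sets with a signal above 100, the value divided by the mean of the 6 columns lay between 0.98207 and 0.98214 in the first Ext1 morpholino column. Groups were therefore not compared. Each value below is the mean of the 6 columns, a single profile (n = 1) with no error, and it belongs to neither group.

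**Figure D1:**
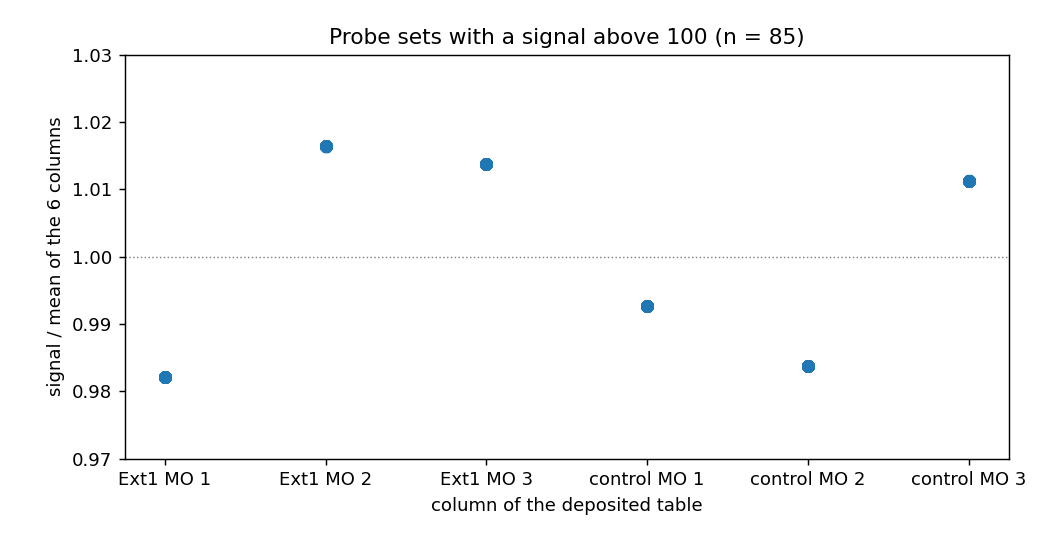
Signal of each cell cycle and licensing probe set above 100 (85 probe sets, 1 point each per column) divided by its mean over the 6 columns of the deposited table. The points of a column fall on 1 another, at 0.982, 1.016 and 1.014 in the Ext1 morpholino columns and 0.993, 0.984 and 1.011 in the control columns.

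The profile had the markers of its labelled stage. All 14 measured gene copies of early gastrula genes, such as tbxt (Brachyury) and sox17a, had a signal above the highest of 17 Tag control probe sets (24.4). That control serves here as a rough floor, and 80.4% of all named gene copies lay above it. The lowest of the 14 read 817, beside a median of 358 over all named gene copies. The 9 gene copies of later tissues (globins, insulin, cardiac troponins and myosin) lay at or below 20.6, under that floor. In whole embryos a low signal cannot tell few expressing cells apart from little RNA per cell.

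Cell cycle and licensing genes were among the brighter probe sets of the profile. Above the floor lay 91 of the 94 probe sets, where 72.0% of all non-control probe sets did, and 75 of 77 gene copies at their brightest probe set, where 80.4% of the 11303 named gene copies did. Their median signal was 1729.6 over gene copies, beside 358 over all named gene copies. In the brightest 10% of all non-control probe sets (signals above 1743) were 38 of the 77 gene copies (49.4%), while 18.7% of named gene copies were in it, and 43 of the 94 probe sets (45.7%), while 10.0% of non-control probe sets are in it by definition. These counts describe 1 profile and were not tested. Each probe set has its own response and background, so a signal or percentile places a probe set in the profile and does not rank transcript numbers between genes. The next gene copies under that line were aurka.L (1729.6), cdk1.S (1713), cdc45.L (1710.1) and wee2.S (1687), and the next above it were mcm6.L (2033) and ccnd1.L (2076).

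**Figure D2:**
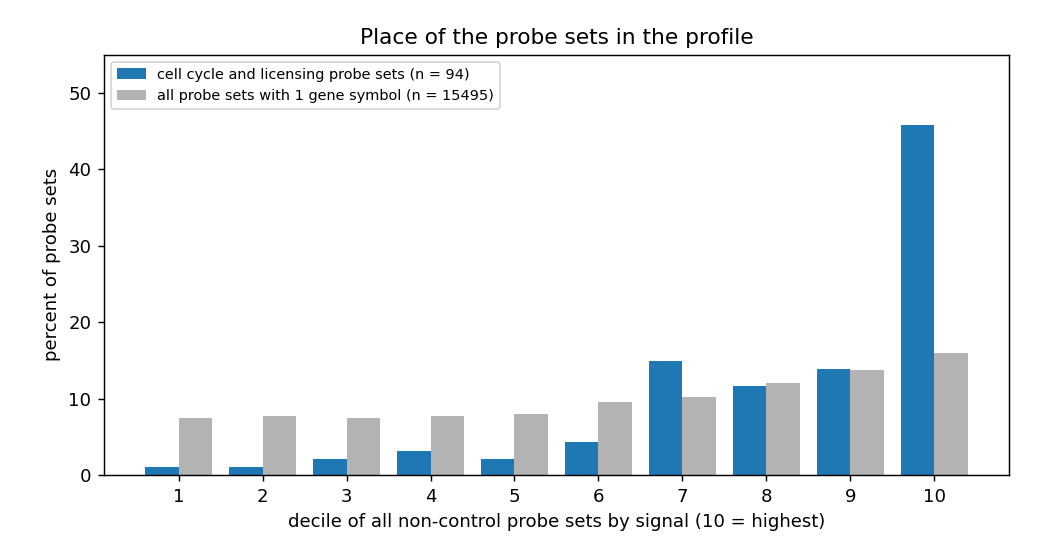
Percent of probe sets in each decile of the 32539 non-control probe sets ordered by signal (1 = dimmest, 10 = brightest), for the 94 cell cycle and licensing probe sets (blue) and for the 15495 probe sets with 1 gene symbol (grey). The top decile held 45.7% of the cell cycle and licensing probe sets and 16.0% of the named ones.

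The cyclins that bind Cdk1 and Cdk2 for S phase and mitosis lay mostly in the top decile. Cyclin B, the mitotic partner of Cdk1, was read by ccnb1.2.L at 23137, at the 99.9th percentile of the profile, and by ccnb1.2.S at 12443. The copies ccnb2.S, ccnb2.L and ccnb1.S were at 10513, 7574 and 7472. Cyclin B3, a divergent B-type cyclin, was read by ccnb3.S at 4280.1 and by ccnb3.L at 1321. Of the 12 gene copies of cyclins A and B, 10 lay in the top decile, beside 18.7% of all named gene copies. The exceptions were ccnb3.L and a probe set named ccna1 with no copy suffix, at 59.6, whose gene ID had no match in the RefSeq gene list.

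Cyclin E, which with Cdk2 starts DNA synthesis, was read by 4 gene copies. All 4 lay above the floor, where 80.4% of all named gene copies did. The copy ccne1.S was at 7634, and ccne1.L at 1380.1 and 389 in its separate probe sets. In Xenopus, cyclin E1 is a maternal protein that oscillates little during cleavage and disappears after the mid-blastula transition. The cyclin E2 copies ccne2.S and ccne2.L were at 3105 and 2104. Cyclin D, the growth-factor-responsive cyclin of somatic G1, was split by gene: ccnd1.S and ccnd1.L were at 4619 and 2076, in the top decile, while ccnd2.L and ccnd2.S were at 200.0 and 139, near the 58.5th and 53.2nd percentiles. A probe set named ccnd2 with no copy suffix, also without a RefSeq match, read 53.1.

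The Cdks gave signals in the upper part of the profile, mostly below the top decile. The mitotic kinase gene copies cdk1.S and cdk1.L were at 1713 and 798, and the S phase kinase gene cdk2 at 1175 for L and 790.2 for S. For the cyclin D partners, cdk4.S read 3984 and 2560.3 in its separate probe sets, and cdk6.L read 1198. Of the 6 Cdk gene copies 1 lay in the top decile, cdk4.S, by either of its probe sets, beside 18.7% of all named gene copies. All 6 lay above the floor, where 80.4% of all named gene copies did.

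Cdc25 phosphatases activate Cdks by removing inhibitory phosphates, and their genes spanned most of the signal range. The copy cdc25a.L was at 5504 and cdc25c.L at 2844. The S copy of cdc25a had 3 probe sets, at 473, 36.0 and 25.2, and a probe set annotated to both cdc25a copies, left out by the naming rule, read 93.5. Low signals were seen for cdc25b.L, whose 3 probe sets read 71.2, 47.9 and 21.9, the last under the floor.

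The kinases that hold Cdks inactive lay, like the Cdks, in the upper part of the profile. At the brightest probe set of each copy they lay between the 71.3rd and 89.6th percentiles. The top decile held 0 of their 6 gene copies, beside 18.7% of all named gene copies. Wee1-type kinases, which phosphorylate Cdk1 in the nucleus, lay between 973 and 1687 at the brightest probe set of each copy. The gene pkmyt1.S, encoding the membrane-bound Myt1 kinase with the same role, was at 449, 346 and 229 in its 3 probe sets. The checkpoint kinase gene chek1.S, whose product restrains Cdc25 when replication is incomplete, was at 540.2 and 236.

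**Figure D3:**
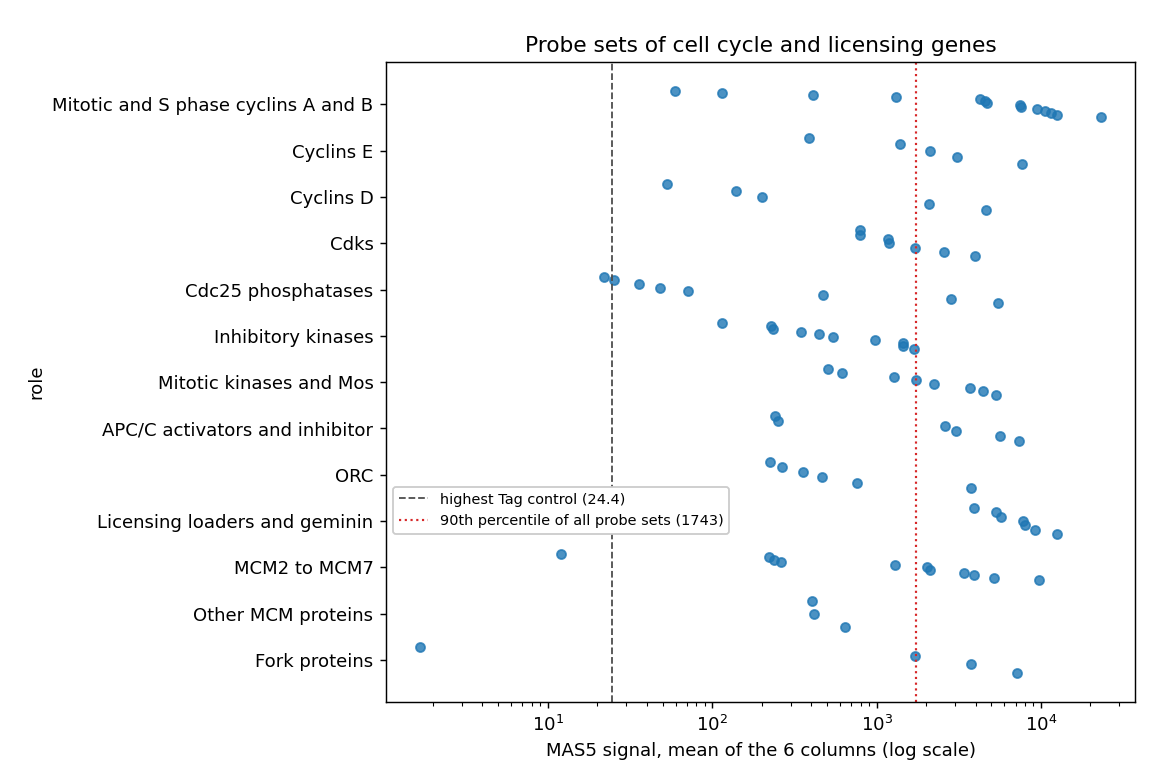
Signal of each of the 94 probe sets (mean of the 6 columns, log scale) by role, with the highest Tag control (24.4, dashed) and the 90th percentile of all non-control probe sets (1743, dotted). Every probe set of the licensing loaders and geminin lies right of the dotted line, between 3916 and 12467, and every probe set of the inhibitory kinases lies left of it.

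Among the mitotic kinases, plk1.S, encoding the Polo kinase of mitotic entry and spindle assembly, read 5292 and 4447 in its separate probe sets. Aurora B, the kinase of the chromosomal passenger complex, was at 2230.0 for aurkb.L and 618 for aurkb.S. Aurora A, the centrosomal kinase, was at 1729.6 for aurka.L and 1276 for aurka.S. The gene mos.L encodes the kinase that keeps the unfertilised egg arrested in metaphase of meiosis, a maternal function, and its probe sets read 3720.4 and 505 in the gastrula profile.

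The APC/C destroys cyclins and securin to end mitosis. Its mitotic activator gene cdc20 was at 7350 for the S copy and at 5636 and 3023 for the probe sets of the L copy. Emi1, encoded by fbxo5, inhibits the APC/C before mitosis, and fbxo5.L was at 2616 while fbxo5.S was at 252. The activator of G1, fzr1.L, was at 241. All 5 gene copies lay above the floor, where 80.4% of all named gene copies did. In the top decile were 3 of the 5, beside 18.7% of all named gene copies.

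The genes cdc6, cdt1 and gmnn, which act on helicase loading after ORC has bound, all lay in the top decile. Both copies of cdc6 were bright, 9218 for S and 5352 for L. The 3 probe sets of cdt1.L read 8005, 5690.3 and 3916. Geminin, the Cdt1 inhibitor, was read by gmnn.S at 12467 and gmnn.L at 7759. The top decile held 5 of these 5 gene copies, beside 18.7% of all named gene copies. The lowest of the 7 probe sets of these genes lay at the 96.4th percentile.

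The origin recognition complex (ORC) had lower signals, apart from 1 subunit. The genes orc1.L, orc3.S, orc4.L, orc2.S and orc5.L lay at 763, 465, 355, 265 and 226, beside a median of 358 over all named gene copies. The gene orc6.L, for the smallest and least conserved subunit, was at 3756. Each subunit was read by 1 probe set, so no second value stands beside the orc6.L signal. The top decile held 1 of the 6 gene copies, beside 18.7% of all named gene copies.

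The MCM helicase is a ring of 6 different subunits. In the profile mcm7.L was at 9665, mcm2.L at 5156, mcm5.L at 3892, mcm7.S at 3388, mcm4.L at 2112, mcm6.L at 2033 and mcm3.L at 1291. Lower values came from mcm4.S (261) and the zygotic mcm6.2 copies, and mcm5.S (12.1) lay under the Tag control floor. Every subunit thus had at least 1 gene copy with a signal above the floor, where 80.4% of all named gene copies lay. Of the 11 gene copies 10 lay above it. The top decile held 6 of the 11, beside 18.7% of all named gene copies. Genes with MCM names whose products lie outside the ring, mcm9.L and mcm8.L of DNA repair and mcm10.L of origin firing, were at 642, 402 and 418. The helicase cofactor gene cdc45.L was at 1710.1, and pcna, for the clamp that holds DNA polymerase on DNA, at 7140.4 for L and 3747 for S. The cdc45.S probe set read 1.67, the lowest signal of the set, while a probe set annotated to both cdc45 copies, outside the naming rule, read 699.8.

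Some regulators exist in Xenopus as a form stored in the egg and a relative made mainly by the zygote. For 5 families, the APC/C activators included, probe sets were grouped as maternal and zygotic. The APC/C activators, cdc20 of mitosis and fzr1 of G1, are different activators and not an egg form and its replacement. They were set side by side only by when they are first present. For cdc20, maternal means present in the egg, and not absent later. In the cyclin A family the L and S copies of both forms were bright. Zygotic cyclin A2, the somatic form, was at 11503 for ccna2.L and 4572 for ccna2.S, and maternal cyclin A1 at 9457 for ccna1.S and 4706 for ccna1.L. In each of the 6 columns ccna1.S gave 9288, 9612 and 9588 under the Ext1 morpholino names and 9388, 9304 and 9564 under the control names. The ranges of the A2 and A1 signals overlapped. The probe set named ccna1 with no copy suffix, at 59.6, was left out of this family.

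In the Wee1 family the L copies of the forms had signals close to each other, and the probe sets of wee1.S were lower. The zygotic gene copy wee1.L was at 1440.3, and the probe sets of wee1.S were at 973 and 115. RefSeq lists wee1.S under the synonym Xe-Wee1B, and wee1.L was grouped with it by its symbol alone. The maternal gene wee2, listed by RefSeq under the synonym Xe-wee1 for S and xe-wee1a for L, was at 1687 for S and 1450.3 for L. With no error on 1 profile, the step between 1440.3 and 1450.3 gives no order.

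For the MCM subunits with named forms, the zygotic probe sets were the dimmer ones. The zygotic MCM6 copies mcm6.2.L and mcm6.2.S, listed by RefSeq as zmcm6, read 221 and 238, at the 60.2nd and 61.4th percentiles. Maternal MCM6, mcm6.L, listed as mmcm6, read 2033, at the 91.5th percentile. For MCM3, the zygotic gene zmcm3.L read 304 and its counterpart mcm3.L read 1291. The RefSeq list does not itself call mcm3.L maternal, and it is grouped so here as the other form beside zmcm3. The symbol zmcm3 does not begin with mcm, so that probe set is not 1 of the 94. Among the APC/C activators, fzr1.L, whose product in Xenopus appears after the mid-blastula transition, read 241, and cdc20, present in the egg, read between 3023 and 7350. These genes also differ in role, G1 for fzr1 and mitosis for cdc20, and whether their gap follows the stage or the role was not tested. In the MCM6 and MCM3 families every zygotic probe set lay below every maternal one. The fzr1.L probe set likewise lay below every cdc20 probe set, and all of these lay above the floor.

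**Figure D4:**
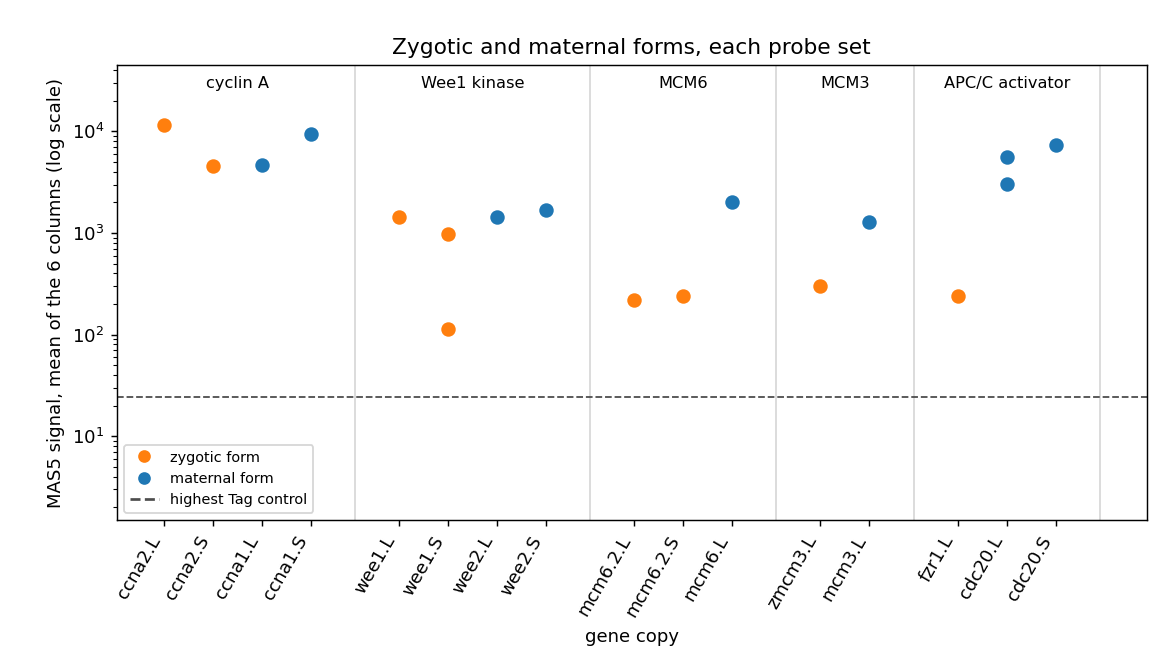
Signal of each probe set (mean of the 6 columns, log scale) for zygotic forms (orange) and maternal forms (blue) of 5 families, with the highest Tag control (24.4) dashed. In the APC/C activator family the colours mark different activators, fzr1 (orange) and cdc20 (blue). Cyclin A signals of both forms lie between 4572 and 11503, with the ccna1 probe set that has no copy suffix left out. The zygotic MCM6 and MCM3 probe sets and that of fzr1 lie between 221 and 304. The maternal MCM6 and MCM3 probe sets and those of cdc20 lie at 1291 or above.

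How far a signal depends on the choice of probe set was read from the 13 gene copies with more than 1 probe set (30 probe sets). The ratio of the brightest to the dimmest probe set of 1 copy had a median of 3.26, with 1.19 for plk1.S at the low end and 37.4 for ccnb3.S (4280.1 and 114.6) at the high end. It was 18.8 for cdc25a.S and 18.4 for ccnb2.L (7574 and 413). In 9 of 13 copies it was 2 or more. Over the 2702 named gene copies with several probe sets its median was 4.66, and in 75.3% of them it was 2 or more. Differences of the size seen between zygotic and maternal MCM3 or MCM6 probe sets therefore also occur between probe sets of 1 gene copy, and no transcript ratio between the forms was computed.

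**Figure D5:**
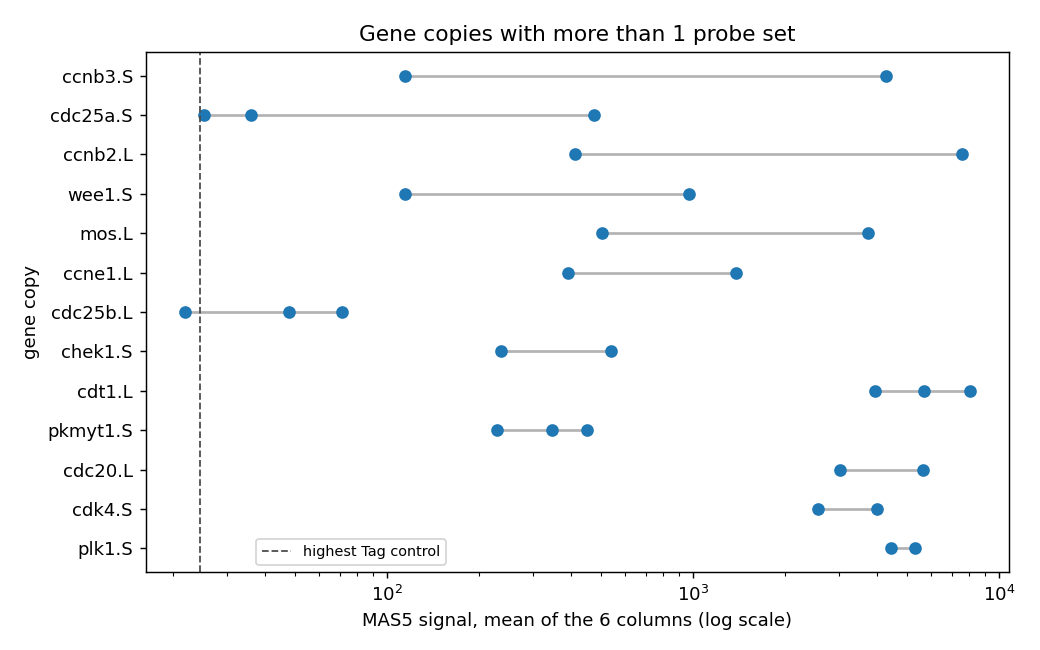
Signals of all probe sets (points, joined by a line; mean of the 6 columns, log scale) for the 13 gene copies read by more than 1 probe set, from ccnb3.S with the widest range (37.4 between brightest and dimmest) at the top to plk1.S with the narrowest (1.19) at the bottom. The dashed line is the highest Tag control (24.4).

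Both the L and the S copy were measured for 26 genes. In 24 of them both copies lay above the floor, and in 11 both lay in the top decile: ccna1, ccna2, ccnb1.2, ccnb2, ccnd1, ccne2, cdc6, cdc20, gmnn, mcm7 and pcna. Of all named gene copies, taken singly, 80.4% lay above the floor and 18.7% in the top decile. The share of such pairs over all genes was not computed. The 2 exceptions to signal from both copies were cdc45 (1710.1 for L and 1.67 for S) and mcm5 (3892 for L and 12.1 for S). Each of these S copies had 1 probe set, so a poor response cannot be told apart from a low transcript level. The probe set annotated to both cdc45 copies read 699.8. Wide gaps above the floor were those of cdc25a (5504 for L and 473 for S), fbxo5 (2616 for L and 252 for S), mcm4 (2112 for L and 261 for S) and ccne1 (1380.1 for L and 7634 for S). Whether these probe sets tell L from S transcripts was not tested. Of the 85 gene copies in the RefSeq list whose symbols fit the naming rule, 10 had no probe set with that symbol alone, among them cdt1.S, plk1.L, chek1.L and mcm2.S, and were not analysed here.

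Other cell cycle and replication genes, in 10 lists that the naming rule does not take, also lay mostly above the floor. Of their 170 gene copies 166 did (97.6%), beside 97.4% of the 77 copies described above and 80.4% of all named gene copies. In the top decile were 52 of the 170 (30.6%), while 18.7% of all named gene copies were in it. All 18 APC/C subunit and E2 enzyme copies lay above the floor, as did all 27 copies of DNA polymerase and fork protein genes. So did all 26 of spindle checkpoint and mitotic kinase genes, and all 25 of cohesin and condensin genes. Median signals of these lists were 1108, 1106, 1402 and 1527. The top decile held 3 of 18, 8 of 27, 12 of 26 and 11 of 25 of their copies, beside 18.7% of all named gene copies. Other ubiquitin ligase parts, other replication initiation factors, and other cyclins and Cdks also lay wholly above the floor, with lower medians of 771, 685 and 528. In the top decile were 5 of 14, 3 of 12 and 6 of 22 of these. The single-stranded DNA binding protein genes rpa3.L and rpa2.L were at 4645 and 4319.6, but rpa3.S and rpa2.S at 605 and 502, and rpa1.L at 1049. The gene tpx2, for a spindle assembly factor, was at 8564 for S and 4101 for L.

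The exception was the list of Cdk inhibitors, where 4 of 9 listed genes were measured, by 4 gene copies. Of these copies 1 lay above the floor, where 80.4% of all named gene copies did. The p53 target cdkn1a.L (p21) was at 19.6, cdkn1b.S (p27) at 1.925 and cdkn2b.L (p15) at 7.09. The copy above the floor was cdkn2d.S (p19), at 101. Each had 1 probe set, so a probe set with a poor response cannot be told apart from a low transcript level. In the E2F family, which controls S phase genes, the repressor gene e2f7.L was at 5036 and the activator genes e2f3.S and e2f1.L at 2963 and 1348, and 12 of 12 copies of E2F, DP, Rb-family and associated genes lay above the floor. Among checkpoint genes, 9 of 10 copies did, atr.L at 518 and chek2.L at 425 included, while atm.L was at 3.70.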

How the data were processed

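Affymetrix Xenopus laevis Genome version 2.0 arrays were used, per the series text. The authors deposited linear intensities, and the submitters' processing notes name MAS5, an algorithm that gives 1 signal per probe set. No version, scaling target or detection call was given in the sources used here. The check for proportional columns takes each value as known to within 0.005, and it was tested on simulated columns. The mean of the 6 columns was used as 1 profile. No groups were compared and no p-value was computed. Precision is limited by having 1 profile.

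Gene symbols came from the platform annotation: 15495 probe sets have 1 symbol, 279 several, and 16765 are unnamed here. Of the 94 probe sets used, 92 had their gene ID in a RefSeq gene list (assembly Xenopus_laevis_v10.1), with 0 symbols changed. By the suffix of the probe set name, 79 were of type _at, 12 _a_at, 2 _s_at and 1 _x_at. Whether each reads a single transcript was not tested. A gene copy was given at its brightest probe set, and every gene copy taken by the rule is named or counted. The genes, lists and floor were chosen with earlier results of these data known, and the line at the top decile after the signals were seen. Alternatives were other floors, the median probe set, updated symbols, a literal reading of the rule and leaving out replicates. Python 3.11.15, numpy 2.4.6, pandas 2.3.3 and matplotlib 3.10.9 were used.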

Additional observations from a re-analysis of the deposited data

How the results depend on the processing

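The counts above the Tag control floor changed little with the processing. With the floor at the median Tag control (2.62), 93 of 94 probe sets and 76 of 77 gene copies lay above it. So did 93.2% of all non-control probe sets and 95.6% of all named gene copies. With a floor of 100 the counts were 85 and 72, while 51.6% of all non-control probe sets and 67.6% of all named gene copies passed 100. Under 100 were cdc45.S, mcm5.S, cdc25b.L and the ccna1 and ccnd2 probe sets with no copy suffix. Requiring a digit after cdc25, the literal reading of the rule, took out the cdc25 genes and left 71 of 73 gene copies above the floor. With the median probe set of each copy it was 75 of 77. Symbols updated through RefSeq left out the ccna1 and ccnd2 probe sets with no suffix, so 73 of 75 gene copies lay above the floor, and the median over gene copies moved to 2033, since both were dim. Leaving out a replicate number (its Ext1 morpholino and control columns) gave medians of 1719 to 1741 and 75 gene copies above the floor each time. Since the columns are proportional, leaving some out rescales every signal and the floor alike, so that count could not change. With either the brightest or the median probe set, every zygotic MCM6 and MCM3 copy lay below every maternal one, and fzr1.L below both cdc20 copies. That choice could not alter the order. Each MCM6 and MCM3 copy had a single probe set, and fzr1.L lay below both probe sets of cdc20.L. No paired analysis was possible because no test was run: columns of equal replicate number differ by a constant alone.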
